A study of Rattus norvegicus with 176 samples.

Results

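Tat, Hal, Sds, Tdo2, Hpd, Gls2 and Got1 encode 7 enzymes of amino acid breakdown, and their expression was followed in rat liver under long-term clofibric acid (CA), a lipid-lowering fibrate whose receptor is the nuclear receptor PPARalpha. The genes were chosen by name, and each was represented by the probe set with the highest mean log2 signal among those annotated to it, which gave 7 probe sets of 15922 on the array and 7 of 10410 named genes. Each of the 7 had a single probe set, and all 7 passed the filter on dim probe sets. Total RNA from liver of F344 rats was hybridised, 1 Affymetrix array per section, and the deposited values were linear intensities processed with MAS5 per the submitters' processing notes.

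The labels named 4 arms: CA, DEN-CA, DEN and control. DEN is the usual abbreviation for the liver carcinogen diethylnitrosamine, which the labels do not spell out, nor do they give its dose or timing, the sex or the age of the rats. Titles named 5000 ppm CA even for controls, so arms were taken from the source names, and for the DEN-CA rev 12 rats from the rest of the title. Each arm had 5 rats at every one of the labels 5j, 1m, 3m, 9m and 12m, and CA and control had another 5 each at 18m. DEN and control rats (5 each) had a label of -8, CA rats with the label 18 and no unit numbered 6, and groups with the tag rev were CA rev 18m (4 rats), control rev 18m (3 rats), DEN-CA rev 12 (5 rats), DEN rev 12 (6 rats) and control rev 12m (4 rats). The controls of -8 had the source name CtrlDEN, whereas all other controls had Ctrl, and both were taken as control here. The labels do not say what CtrlDEN, j, rev, TU or PERI stand for, and TU here covers all section tags that begin with these letters in either case. In all, 148 rats had 1 untagged section, 16 of them (9 CA and 7 DEN-CA rats) had another 23 sections tagged TU, and 5 had a section tagged PERI. Nothing in the labels says whether untagged sections of 1 group came from separate cages or days, and p-values measure the spread between these rats.

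The liver breaks down most dietary amino acids other than the branched chain ones, and the first step of each route is usually the step that hormones and diet control. Glucocorticoids, glucagon and protein intake are known to raise several of these enzymes in rat liver, with Tat and Sds as textbook cases, and many of them are made mainly in the periportal zone. PPARalpha activation is known in rodents to lower genes of amino acid breakdown and urea synthesis while it raises genes of fatty acid oxidation.

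The members stand at different steps. Tat (tyrosine aminotransferase, Entrez gene 24813, on chromosome 19 at 54856604 to 54867168) starts tyrosine breakdown, and Hpd (4-hydroxyphenylpyruvate dioxygenase, Entrez gene 29531, chromosome 12 at 39042246 to 39053596) acts on the product of Tat. Tdo2 (tryptophan 2,3-dioxygenase, Entrez gene 64206, chromosome 2 at 169567656 to 169585586) opens the ring of tryptophan. Hal (histidine ammonia-lyase, Entrez gene 29301, chromosome 7 at 29894495 to 29924744) removes ammonia from histidine, and Sds (serine dehydratase, Entrez gene 25044, chromosome 12 at 41743796 to 41751108) turns serine into pyruvate. Gls2 (liver-type glutaminase, Entrez gene 192268, chromosome 7 at 1201757 to 1218014) releases ammonia from glutamine, and Got1 (cytosolic aspartate aminotransferase, Entrez gene 24401, chromosome 1 at 252306541 to 252337622) moves amino groups between aspartate and glutamate. Gene positions are those of RefSeq on the rat assembly GRCr8, and the arrays were designed on older sequence.

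RefSeq promoter windows on GRCr8 were at hand for 5 of the 7 genes, and 3 of them are shown because the 250 bases end at the annotated start of the gene: Tat (chr19:54856354-54856603, plus strand), Tdo2 (chr2:169585587-169585836, minus strand) and Hpd (chr12:39041996-39042245, plus strand). Capitals mark matches, on either strand, to 4 searched motifs. These were CCAAT, which reads ATTGG on the other strand; AGGTCA, the nuclear receptor half-site, which reads TGACCT there; TGTTCT, the glucocorticoid receptor half-site, which reads AGAACA there; and TGACG, the cAMP response half-site, which reads CGTCA there.
Tat: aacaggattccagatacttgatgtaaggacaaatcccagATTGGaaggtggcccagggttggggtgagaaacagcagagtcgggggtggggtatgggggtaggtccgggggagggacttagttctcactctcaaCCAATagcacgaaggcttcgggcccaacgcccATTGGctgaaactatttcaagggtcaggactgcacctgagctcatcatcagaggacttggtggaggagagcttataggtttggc
Tdo2: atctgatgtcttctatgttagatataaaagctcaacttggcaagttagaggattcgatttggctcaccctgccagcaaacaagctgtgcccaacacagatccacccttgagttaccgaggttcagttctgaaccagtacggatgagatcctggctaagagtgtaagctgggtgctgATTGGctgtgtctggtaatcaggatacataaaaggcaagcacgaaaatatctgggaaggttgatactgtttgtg
Hpd: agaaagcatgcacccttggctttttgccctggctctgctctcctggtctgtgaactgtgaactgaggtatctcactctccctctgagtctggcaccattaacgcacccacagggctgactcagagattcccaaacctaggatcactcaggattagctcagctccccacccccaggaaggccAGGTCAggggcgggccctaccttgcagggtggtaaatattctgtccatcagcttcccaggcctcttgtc
The Tat window held 3 CCAAT matches, the Tdo2 window held 1 CCAAT match and the Hpd window held 1 AGGTCA match. The windows of Got1 and Gls2, which reach into the annotated gene and are not printed, held 6 CCAAT matches for Got1, and 2 TGACG matches and 1 CCAAT match for the first of 2 Gls2 windows, the second of which held none. Over 33469 RefSeq promoters of the same length, 34% held CCAAT, 14.1% AGGTCA, 17.5% TGTTCT and 18.2% TGACG, and a match describes the letters only. Hal and Sds are named without a promoter.

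All 7 genes were well expressed in most untagged sections. Over the 148 untagged sections, scaled so that every array had the same median signal of 99.35, the mean signal was 10415 for Hpd, 7551 for Tdo2, 2991 for Gls2, 1792 for Got1, 1698 for Tat, 1309.6 for Hal and 1201 for Sds. Within an array, the median rank of the gene among all probe sets ran between the 87.36th percentile for Sds and the 99.74th for Hpd. The lowest rank in any untagged section was the 45.87th percentile for Sds, and the 80.32nd or above for each other member. These are signals of different probes, so their order is not an order of transcript abundance.

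The members differed in how far rats of 1 group lay from each other. Hpd and Tdo2 were even, with a median coefficient of variation over the 30 groups of 13.9% and 16.2%, as was Gls2 with 16.4%. Hal followed with 21.2%. Tat and Got1 varied more, with 39.5% and 39.6%, and Sds most, with 62.9%. In the median group the highest rat had 5.50 times the Sds signal of the lowest rat, against 1.39 times for Hpd. The widest group was control 1m for Sds, with a ratio of 29.7, and for Got1, with a ratio of 10.03. In control 1m the 5 rats had Sds signals of 178, 248, 478, 1474 and 5291, so that 1 rat held most of the group's mean. When the 30 groups were ordered by their mean, the ranges of all 29 pairs of neighbours overlapped for each of the 7 genes, and for every gene except Tat the highest and lowest groups lay apart. The highest and lowest groups were picked by these same values, and no share over all probe sets was counted, so this only describes the values.

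**Figure D1:**
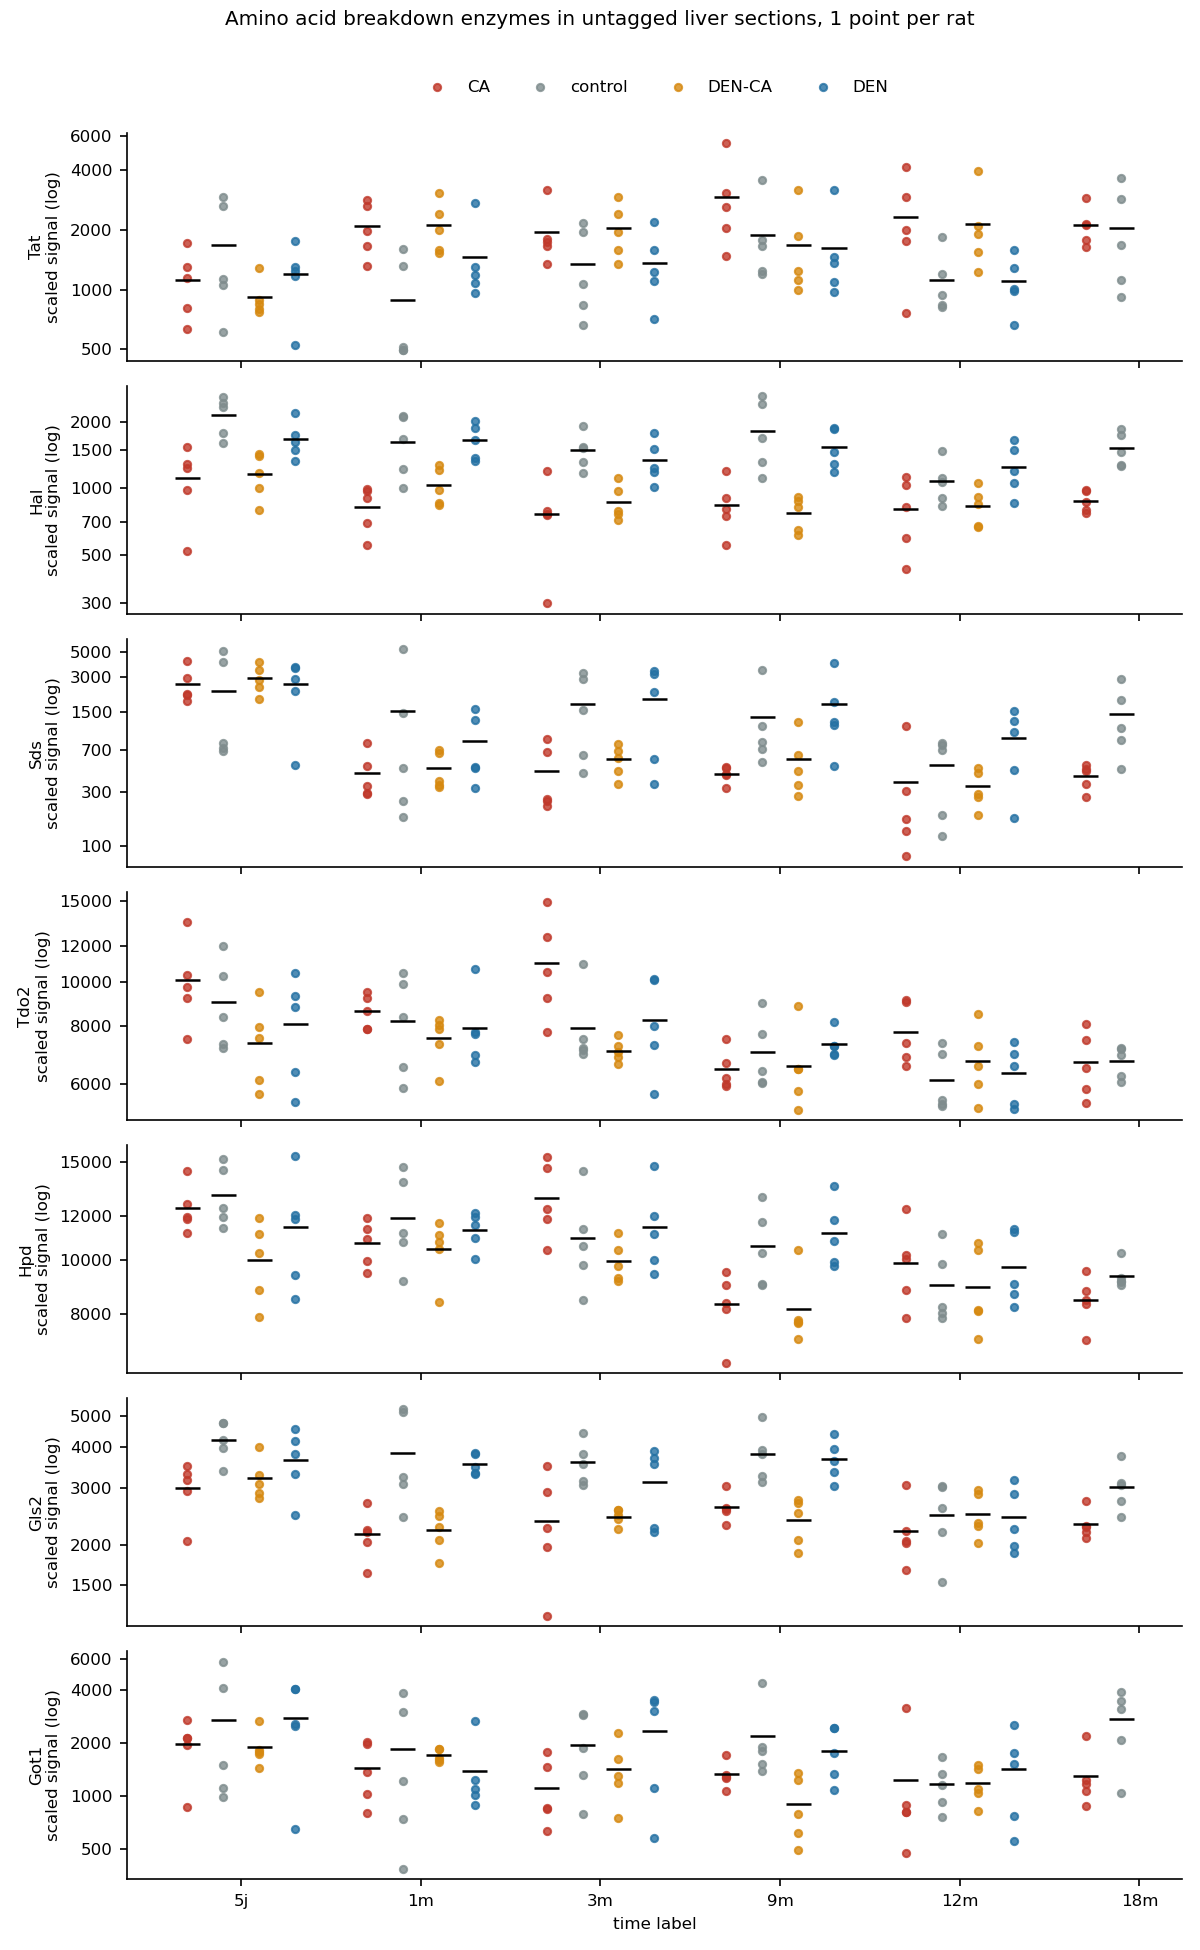
Scaled signal of the 7 genes on a log axis, 1 point per rat and 1 line per group mean, for CA, control, DEN-CA and DEN rats at each time label (5 rats a group). Hal points of CA rats at 5j, 1m and 18m lie wholly below those of controls, and Sds of CA rats is high at 5j (group mean 2646) and between 362 and 453 at the later times.

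CA was compared with control at 6 times to see which breakdown genes follow the drug and for how long. Hal was the member that changed at most times: its group mean was lower in CA rats at 6 of 6 times, and it fell at 5j, 1m, 3m and 9m. Gls2 was also lower on average at 6 of 6 times and fell at 1m and 3m. Sds fell at 3m. Tat rose at 1m and Tdo2 rose at 3m, while Hpd and Got1 passed at no single time. In all, 2 of 42 member tests were called higher and 7 of 42 lower (limma, Benjamini-Hochberg over 12393 probe sets, threshold 0.05). The share of all probe sets called was 11.2% at 5j, 14.4% at 1m, 14.2% at 3m, 6.78% at 9m, 11.7% at 12m and 6.79% at 18m.

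Hal signal in CA rats at 5j was 522, 981, 1243, 1289 and 1536, against 1609, 1784, 2344, 2434 and 2593 in controls. At 1m it was 555, 695, 907, 977 and 993 in CA rats, against 1001, 1226, 1675, 2120.1 and 2136 in controls. At 18m it was 774, 799, 868, 972 and 984 in CA rats, against 1269, 1282, 1466, 1751 and 1859 in controls. At these 3 of 6 times each CA rat was below each control rat. How often groups lay apart in this way was not counted over all probe sets, so lack of overlap, here and below, only describes the values. At 3m and 9m the groups touched at their edges, with 300.3, 759, 767, 793 and 1194 in CA rats against 1179, 1319, 1533, 1539.7 and 1929 in controls at 3m. At 9m the values were 552, 752, 807, 905 and 1205 in CA rats against 1120.3, 1314, 1688, 2420.3 and 2623 in controls. At 12m the overlap was wide, with means of 805 ± 294 in CA rats and 1081 ± 249.6 in controls (SD, n = 5 each).

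On the log2 scale (signal plus an offset of 25), Hal differed by -0.996 ± 0.28 (SE, adjusted p = 0.00788) at 5j, by -0.93 ± 0.28 (SE, adjusted p = 0.011) at 1m, by -1.05 ± 0.28 (SE, adjusted p = 0.00365) at 3m and by -1.06 ± 0.28 (SE, adjusted p = 0.0059) at 9m. At 12m and 18m the differences were -0.47 ± 0.28 (SE, adjusted p = 0.301) and -0.77 ± 0.28 (SE, adjusted p = 0.0746), which did not pass. The call at 9m held with any 1 of the 10 rats left out. Without scaling of the arrays the calls at 1m (-0.87, adjusted p = 0.318) and 9m (-0.90, adjusted p = 0.31) were lost. The calls at 5j, 1m and 3m were each lost without 1 CA rat, the lowest of its group: rat 4118 at 5j (-0.75, adjusted p = 0.0843), rat 4126 at 1m (-0.80, adjusted p = 0.0522) and rat 4127 at 3m (-0.76, adjusted p = 0.0521).

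Gls2 signal at 1m was 1635, 2036, 2197, 2223 and 2702 in CA rats, against 2429.7, 3091, 3247, 5163 and 5277 in controls, and only the edges of the groups overlapped. The difference was -0.78 ± 0.18 (SE, adjusted p = 0.000945) and held with any 1 rat left out, but not without scaling (-0.71, adjusted p = 0.289). At 9m the groups did not overlap, with 2302, 2544, 2578, 2592 and 3039 in CA rats against 3133, 3256, 3811, 3921 and 4986 in controls, yet the difference of -0.53 ± 0.18 (SE, adjusted p = 0.0567) did not pass. At 3m Gls2 differed by -0.67 ± 0.18 (SE, adjusted p = 0.00502), a call lost without CA rat 4127 (-0.46, adjusted p = 0.0807), whose Gls2 and Hal signals were the lowest of its group. At 5j, 12m and 18m the differences were -0.50 ± 0.18 (SE, adjusted p = 0.054), -0.16 ± 0.18 (SE, adjusted p = 0.672) and -0.37 ± 0.18 (SE, adjusted p = 0.25).

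Sds had a wide spread in controls. At 3m it was 222, 248, 257, 671 and 864 in CA rats, against 438, 624.6, 1541, 2916 and 3315 in controls, a difference of -1.72 ± 0.62 (SE, adjusted p = 0.0449) that was lost in 6 of 10 fits without 1 rat, namely CA rats 4127, 4129 and 4131 and control rats 4017, 4018 and 4020 (adjusted p up to 0.162). At 9m the groups did not overlap, with 322, 421, 425, 483 and 491 in CA rats against 548, 707, 820.4, 1129 and 3499.9 in controls, and the difference of -1.26 ± 0.62 (SE, adjusted p = 0.255) did not pass. At 18m CA rats had 268, 352, 457, 477 and 509.7, against 471, 851, 1075, 1888 and 2917 in controls, with a difference of -1.51 ± 0.62 (SE, adjusted p = 0.136). The CA rats of 5j had far higher Sds than those of later times: 1869, 2097, 2149, 2962 and 4155, against controls at 686, 727, 796, 4074 and 5133, with a difference of 0.71 ± 0.62 (SE, adjusted p = 0.524). The CA effect at 18m minus that at 5j was -2.22 ± 0.87 (SE, adjusted p = 0.285), which did not pass, as for the other 6 members, in a contrast that called 0.726% of probe sets.

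Tat went the other way at 1m, with 1321, 1669, 1976, 2656 and 2832 in CA rats, against 495, 498, 514, 1313 and 1613 in controls, with some overlap. The difference was 1.35 ± 0.38 (SE, adjusted p = 0.00723), 2.55-fold higher in CA rats, and held with any 1 rat left out, but not without scaling (1.41, adjusted p = 0.0819). Its mean was higher in CA rats at 5 of 6 times, and the differences other than that of 1m did not pass, with 0.62 at 3m, 0.60 at 9m, 0.90 at 12m and 0.21 at 18m. The exception was 5j, with -0.41 ± 0.38 (SE, adjusted p = 0.558). Hpd, the next step of the same route, passed at no time, with differences between -0.35 at 9m (adjusted p = 0.11) and 0.25 at 3m (adjusted p = 0.224).

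Tdo2 at 3m was 7787, 9230.4, 10532, 12516 and 14905 in CA rats, against 6969.8, 7103, 7181, 7490.4 and 10926 in controls, and the groups overlapped. The difference of 0.45 ± 0.16 (SE, adjusted p = 0.0458) was lost in 7 of 10 fits without 1 rat, namely CA rats 4129, 4130 and 4131 and control rats 4016, 4017, 4018 and 4020, with adjusted p up to 0.215. Its sign also depended on the scaling: without scaling of the arrays the Tdo2 difference at 3m was -0.51, where the median of all probe sets stood at -0.71. Under quantile normalization it was 0.099 (adjusted p = 0.387). Got1 differed by between -0.98 at 18m (adjusted p = 0.178) and 0.02 at 1m (adjusted p = 0.983).

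**Figure D2:**
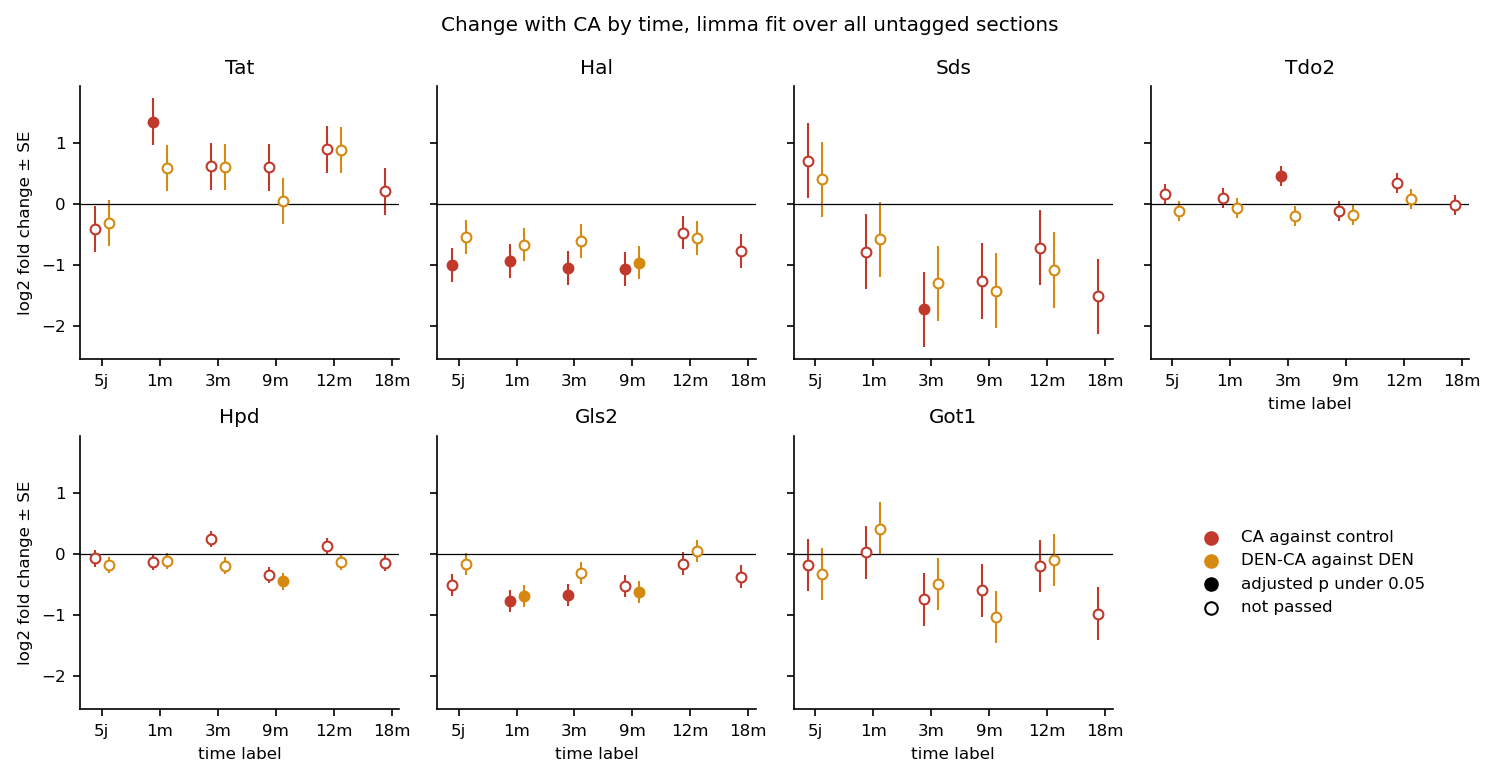
Log2 fold change with its standard error for CA against control at 6 times and DEN-CA against DEN at 5 times, 1 panel per gene, filled points passing an adjusted p of 0.05. Hal lies below 0 at all 11 points, between -1.06 and -0.47, and Tat passes only at 1m of CA against control.

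Averaged over the 6 times, 5 of the 7 members changed with CA. Hal fell by 0.88 ± 0.11 on the log2 scale, 1.84-fold (SE, adjusted p = 3.55e-11), Sds by 0.88 ± 0.25 (SE, adjusted p = 0.00262), Gls2 by 0.50 ± 0.07 (SE, adjusted p = 6.16e-09) and Got1 by 0.45 ± 0.17 (SE, adjusted p = 0.032). Tat rose by 0.54 ± 0.16 (SE, adjusted p = 0.00247). Tdo2 (0.15 ± 0.07, SE, adjusted p = 0.0542) and Hpd (-0.06 ± 0.05, SE, adjusted p = 0.443) did not pass. This average called 40.2% of all probe sets, and the median change was -0.45 over the 7 members and -0.02 over all probe sets tested. The calls of Hal, Sds, Gls2 and Tat held with any 1 of 60 rats left out, and that of Got1 was lost in 9 of these fits (adjusted p up to 0.0676). Without scaling of the arrays Tat no longer passed (0.32, adjusted p = 0.145).

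Some titles carried a B suffix whose meaning the labels do not give, on 46 untagged sections of -8, 5j, 1m, 3m and 9m, more often in some arms than in others. With the suffix as a covariate the averages were -0.85 for Hal, -0.89 for Sds, -0.50 for Gls2, -0.44 for Got1 and 0.55 for Tat, and these 5 still passed.

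DEN-CA against DEN asked the same question in the DEN arms, in groups that share no rat with the CA and control arms. Gls2 and Hal fell again, and no member rose: 0 of 35 member tests were called higher and 4 of 35 lower. The share of member tests called was near that of all probe sets, which was 10.5% at 5j, 16.2% at 1m, 14.3% at 3m, 6.99% at 9m and 7.04% at 12m. Gls2 fell at 1m by 0.69 ± 0.18 (SE, adjusted p = 0.00357), with 1751, 2072, 2266, 2449 and 2548 in DEN-CA rats, against 3321, 3326, 3475, 3805 and 3855 in DEN rats. At 9m it fell by 0.63 ± 0.18 (SE, adjusted p = 0.0175), with 1888, 2066, 2507, 2692 and 2755 in DEN-CA rats, against 3050.3, 3359, 3641, 3958 and 4391 in DEN rats. The groups did not overlap at either time. Without scaling neither call stood, with -0.31 at 1m (adjusted p = 0.509) and -0.16 at 9m (adjusted p = 0.70), and under quantile normalization that of 9m was -0.41 (adjusted p = 0.0535).

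Hal at 9m was 613, 648, 824, 879 and 912 in DEN-CA rats, against 1192, 1287, 1462, 1863 and 1887 in DEN rats, without overlap and with a difference of -0.96 ± 0.28 (SE, adjusted p = 0.0159). At 1m Hal did not overlap either, with 838, 855, 987, 1208 and 1283 in DEN-CA rats against 1329, 1368, 1668, 1881 and 2016 in DEN rats, but -0.66 ± 0.28 (SE, adjusted p = 0.0853) did not pass. Hpd fell at 9m by 0.45 ± 0.13 (SE, adjusted p = 0.0204), with 7203, 7699, 7722, 7792 and 10418 in DEN-CA rats, against 9742, 9892, 10788, 11808 and 13584 in DEN rats. Those 3 calls of 9m were sensitive to single rats: Hal was lost without DEN rat 4069 or DEN-CA rat 4115 (adjusted p up to 0.0584), Hpd without any of DEN rats 4069 and 4071 and DEN-CA rat 4115 (up to 0.0972), and Gls2 without any of DEN rat 4071 and DEN-CA rats 4104 and 4115 (up to 0.0816). Without scaling the difference at 9m was -0.50 for Hal (adjusted p = 0.365) and 0.02 for Hpd, and under quantile normalization that of Hpd was -0.19 (adjusted p = 0.0772).

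Over the 5 times, Hal fell by 0.66 ± 0.12 (SE, adjusted p = 3.41e-06), Sds by 0.79 ± 0.28 (SE, adjusted p = 0.0165), Gls2 by 0.35 ± 0.08 (SE, adjusted p = 0.000245) and Hpd by 0.21 ± 0.06 (SE, adjusted p = 0.0025). Tat (0.37 ± 0.17, SE, adjusted p = 0.0826), Got1 (-0.31 ± 0.19, SE, adjusted p = 0.221) and Tdo2 (-0.09 ± 0.07, SE, adjusted p = 0.346) did not pass, in an average that called 35.1% of all probe sets. Without scaling, Sds (-0.65, adjusted p = 0.0965), Gls2 (-0.20, adjusted p = 0.285) and Hpd (-0.066, adjusted p = 0.671) no longer passed, and Tat did (0.51, adjusted p = 0.0499). Mean Sds in DEN-CA rats was 2956 at 5j, 481 at 1m, 573 at 3m, 583 at 9m and 333 at 12m, against 2603, 834, 1958, 1745 and 878 in DEN rats at the same times.

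The CA effect after DEN minus the CA effect without DEN was tested directly and no member passed at any time or in the average over 5 times. These contrasts called 0.0403% of probe sets at 5j, 0% at 1m, 0.218% at 3m, 0.00807% at 9m, 0% at 12m and 0.0403% in the average. In the average the difference of effects was 0.24 ± 0.17 for Hal (SE, 95% interval -0.10 to 0.58), 0.18 ± 0.11 for Gls2 (SE, -0.04 to 0.41), -0.24 ± 0.24 for Tat (SE, -0.72 to 0.23) and -0.04 ± 0.39 for Sds (SE, -0.81 to 0.72). At an unadjusted p of 0.05, 2 of 7 members passed at 3m, beside 1551 of 12393 probe sets, and 2 in the average, beside 1295 probe sets. Those of the average were not Hal, Gls2, Tat or Sds, whose intervals all included 0.

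DEN alone moved none of the members past the threshold: 0 of 42 tests passed, with a lowest adjusted p of 0.613 (Gls2 at -8). Only Tat at 1m had an unadjusted p under 0.05, beside 548 of 12393 probe sets at that time. Few probe sets of any kind were called, 0.307% at -8, 0.0403% at 5j, 0.00807% at 3m and 0% at 1m, 9m and 12m. At -8, Hal averaged 1801 ± 226 in DEN rats and 2079 ± 308 in controls (SD, n = 5 each), and Tat 1483 ± 174 in DEN rats and 1891 ± 638 in controls. In controls alone, Hpd was lower at 18m than at 5j by 0.48 ± 0.13 (SE, adjusted p = 0.0151), with 8989.8, 9102, 9162, 9261 and 10289 at 18m, against 11420.3, 11941, 12399, 14521 and 15184 at 5j, in a contrast that called 7.22% of probe sets. The difference came to -0.054 without scaling (adjusted p = 0.876) and -0.066 under quantile normalization (adjusted p = 0.633). The call was also lost without control rat 4010 or 4008 (adjusted p up to 0.0551), and the other 6 members did not pass.

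The other genes of amino acid breakdown went both ways. Of 55 measured genes of these routes, 15 rose and 16 fell in the average of CA against control, and 17 rose and 18 fell in that of DEN-CA against DEN, beside the 40.2% and 35.1% called over all probe sets. In CA against control, those that rose numbered 5, 5, 7, 5, 10 and 4 from 5j through 18m, and those that fell 11, 12, 9, 8, 8 and 6. At 4 or more of the 6 times, 8 of these genes fell and 4 rose.

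Ornithine aminotransferase (Oat) fell most, by 2.74 ± 0.13 in the average (SE, adjusted p = 1.62e-39), and it is also 1 of the pericentral markers below. Acmsd, which turns a tryptophan product away from NAD synthesis, fell by 1.25 ± 0.10, the D-amino acid oxidase gene Dao by 0.87 ± 0.07, the lysine enzyme Aass by 0.85 ± 0.09 and the cystathionine synthase Cbs by 0.82 ± 0.08. The one-carbon enzymes Ftcd, which acts further down the histidine route of Hal, and Aldh1l1 fell by 0.54 ± 0.06 and 0.58 ± 0.06, and Dmgdh, a choline and glycine route enzyme, by 0.57 ± 0.07. The 4 that rose were Csad (taurine synthesis, 1.07 ± 0.10), the branched chain enzymes Hibch (0.96 ± 0.07) and Bckdha (0.88 ± 0.09) and the lysine and tryptophan route enzyme Gcdh (0.52 ± 0.06).

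Of 15 branched chain genes, 7 rose and 0 fell with CA in the average, and 10 rose and 1 fell in DEN-CA against DEN, beside 40.2% and 35.1% of all probe sets called in either direction. Of 7 amino acid carriers, the aromatic amino acid carrier Slc16a10 fell by 1.298 ± 0.11 and the glutamine carrier Slc38a3 by 0.53 ± 0.07, while the carrier subunit Slc3a2 rose by 1.43 ± 0.08. The PPARalpha target genes Acot1, Ehhadh, Cpt1b and Vnn1 rose at each of the 6 times, for example Acot1 by 3.56 ± 0.14 and Vnn1 by 3.13 ± 0.15 in the average. Of 15 hormone and fasting response genes, 3 rose and 4 fell, and of 8 clock genes 1 rose and 3 fell, shares near the 40.2% over all probe sets.

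Some markers of cell types moved with CA as well. In the average of CA against control, 6 of 6 measured macrophage and Kupffer cell markers, 5 of 8 periportal and 3 of 6 pericentral hepatocyte markers and 1 of 7 general hepatocyte markers fell, and 1 periportal marker rose. The share of all probe sets called in this average was 40.2% in either direction. The summed macrophage signal ran from 2201 to 5147 in CA rats, against 3785 to 8698 in controls (30 rats each). The summed periportal signal ran from 28361 to 59331 in CA rats, against 30300.0 to 59675 in controls, and the pericentral sum from 7634 to 26737 in CA rats, against 13921 to 30048 in controls. Pancreatic acinar markers summed to 648 to 1758 in CA rats, against 152 to 897 in controls. The median sum of cholangiocyte markers was 800 in CA rats and 561 in controls. It was 1114 and 1374 for stellate cell and fibroblast, 1251 and 1595 for endothelial, and 194 and 223 for lymphocyte markers. In DEN-CA against DEN, 6 of 6 macrophage, 7 of 8 periportal, 3 of 6 pericentral and 4 of 7 general hepatocyte markers fell. The share of all probe sets called in that average was 35.1%. No marker of these lists was at 0 in any arm. The part of these shifts in the members' changes was not tested, and in bulk sections fewer cells of a type and less RNA per cell cannot be told apart. General hepatocyte markers were bright on the arrays, with sums from 51833 to 198890.0 in CA rats and 66532 to 128718 in controls.

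Groups with the tag rev were set against the same arm without it. Hal and Gls2 were the members that passed the threshold in CA rev 18m against CA 18m, both higher. Hal was 1513, 1813, 1838 and 2421 in CA rev rats, against 774, 799, 868, 972 and 984 in CA rats, 2.10-fold higher, with a log2 difference of 1.07 ± 0.29 (SE, adjusted p = 0.00553). Each rev rat was above each CA rat, and the call held with any 1 of the 9 rats left out, but not without scaling (0.67, adjusted p = 0.267). Gls2 was 2726, 3301, 3538 and 4353 in CA rev rats, against 2104, 2184, 2266, 2291 and 2729.9 in CA rats, with a difference of 0.57 ± 0.19 (SE, adjusted p = 0.0313), a call lost in 7 of 9 fits without 1 rat, all but those without CA rev rat 4149 or CA rat 4142 (adjusted p up to 0.15), and lost without scaling (0.16, adjusted p = 0.76).

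Hpd did not overlap either, with 10685, 10695, 10796 and 11680.4 in CA rev rats against 7182, 8315, 8459.8, 8800.0 and 9528 in CA rats, but its difference of 0.38 ± 0.14 (SE, adjusted p = 0.0551) did not pass. Sds was 445, 476, 833 and 2932 in CA rev rats, against 268, 352, 457, 477 and 509.7 in CA rats, where 1 rev rat was far above the rest (1.04 ± 0.65, SE, adjusted p = 0.301). Tat (-0.59 ± 0.40), Got1 (0.62 ± 0.45) and Tdo2 (0.06 ± 0.17) did not pass. This contrast called 14.7% of all probe sets. Of the 55 other breakdown genes, 8 rose and 10 fell in CA rev rats against CA rats, with Oat up by 2.76 ± 0.35 and the branched chain enzyme Hibch down by 1.26 ± 0.18 (SE). Beside this, 4 of 6 macrophage and 3 of 6 pericentral markers rose and 4 of 4 PPARalpha targets fell. The summed marker signal of general hepatocytes ran from 89929 to 106469 in CA rev rats, against 51833 to 87383 in CA rats, and that of macrophages from 6249 to 9108 in CA rev rats, against 4272 to 5147 in CA rats. Cholangiocyte markers summed to 498 to 579 in CA rev rats, against 819 to 977 in CA rats, and acinar markers to 465 to 564 in CA rev rats, against 819 to 1338 in CA rats. The periportal, pericentral, lymphocyte and stellate cell sums also lay wholly higher in CA rev rats, the endothelial sums overlapped, and the part of these shifts in the members' values was not tested. The CA 18m rats are the same as in CA 18m against control 18m, so both contrasts share rats, with Hal at -0.77 ± 0.28 and Gls2 at -0.37 ± 0.18 in the other one.

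Against control rev 18m, CA rev 18m showed no member past the threshold, with 0.42 ± 0.33 (SE, adjusted p = 0.769) for Hal and 0.17 ± 0.22 (SE, adjusted p = 0.886) for Gls2, and 0.734% of probe sets called. The 3 control rev rats were far apart: Hal was 378, 1873 and 3667, and rat 4043 was the lowest of the 3 for every member except Got1. The CA effect with rev minus that without was 1.19 ± 0.43 (SE, adjusted p = 0.165) for Hal and 0.54 ± 0.28 (SE, adjusted p = 0.455) for Gls2, so the difference of effects itself did not pass, in a contrast that called 1.46% of probe sets. Control rev against control passed for no member, with 9.79% of probe sets called at 18m and 0.121% at 12m. At 12m, Got1 was 2272, 2298, 2399.7 and 2761 in control rev rats, against 763, 928, 1157, 1326 and 1669 in controls. The groups did not overlap, but the difference did not pass (1.09 ± 0.45, SE, adjusted p = 0.528).

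**Figure D3:**
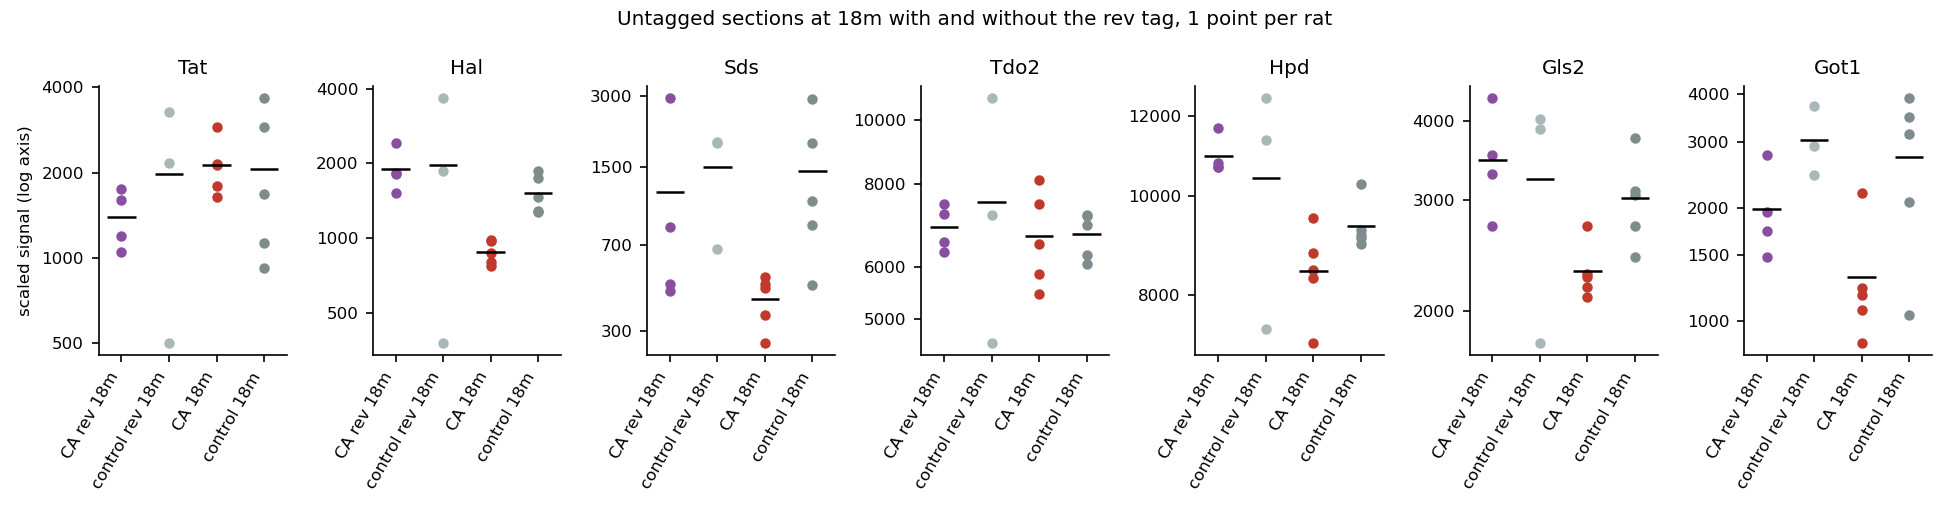
Scaled signal on log axes of the 7 genes at 18m in CA rev, control rev, CA and control rats, 1 point per rat with the group mean as a line. Hal of the 4 CA rev rats lies between 1513 and 2421, above all 5 CA rats, and the 3 control rev rats spread from 378 to 3667.

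In the DEN arms at 12m no member passed. DEN-CA rev 12 against DEN-CA 12m called 12.8% of probe sets and no member, with 0.13 ± 0.28 (SE, adjusted p = 0.806) for Hal and -0.02 ± 0.18 (SE, adjusted p = 0.947) for Gls2. Hal was 507, 758, 967, 998 and 1593 in DEN-CA rev rats, against 665, 678, 848, 918 and 1063 in DEN-CA rats. DEN-CA rev 12 against DEN rev 12 called 0.121% of probe sets and no member, the DEN-CA effect with rev minus that without 2.3% and no member, and DEN rev 12 against control rev 12m 0.00807% and no member. In the last of these, Got1 did not overlap, with 1083 to 1653 with a median of 1344 in DEN rev rats (n = 6), against 2272, 2298, 2399.7 and 2761 in control rev rats (-0.82 ± 0.44, SE, adjusted p = 1).

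The 6 CA rats with the label 18 were compared with controls of 18m and with CA rats of 18m, the first of which shares its controls with CA 18m against control 18m. Hal ranged from 684 to 1194 with a median of 834 in CA 18 rats, against 1269, 1282, 1466, 1751 and 1859 in controls of 18m, without overlap (-0.76 ± 0.26, SE, adjusted p = 0.0241, 23.2% of probe sets called). The call was lost without control rat 4039 or 4040 or CA rat 4155 (adjusted p up to 0.0698). Gls2 (-0.24 ± 0.17), Sds (-1.16 ± 0.59) and Got1 (-0.89 ± 0.41) did not pass. Against CA 18m, 7% of probe sets and no member passed, although Hpd did not overlap, with 10160.2 to 11265 with a median of 10597 in CA 18 rats against 7182, 8315, 8459.8, 8800.0 and 9528 in CA 18m rats (0.34 ± 0.13, SE, adjusted p = 0.0866).

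TU sections were set against the untagged section of the same rat, with TU sections of 1 rat averaged first. The CA rats here pooled the labels 12m, 18m, 18 and rev 18m, and the DEN-CA rats pooled 9m, 12m and rev 12. Hal, Tat and Gls2 fell in TU sections of DEN-CA rats, and Hal fell in those of CA rats. In the 7 DEN-CA rats the Hal differences, in log2 and in order of size, were -2.53, -2.03, -1.88, -1.63, -0.69, -0.65 and -0.62, all below 0, with a mean of -1.43 ± 0.37 (SE, adjusted p = 0.00632), 2.70-fold lower in TU sections. In the 9 CA rats they were -3.01, -2.96, -2.14, -1.92, -0.88, -0.70, -0.65, -0.50 and 1.21, below 0 in 8 of 9, with a mean of -1.28 ± 0.32 (SE, adjusted p = 0.0407). The lowest of the CA values, -3.01, was that of rat 4151 of CA rev 18m. The Hal call in DEN-CA rats held with any 1 rat left out, whereas that in CA rats was lost without any 1 of 8 rats (adjusted p up to 0.113) and held only without rat 4137. The call in CA rats was also lost without the rats of rev groups, without scaling (-0.93, adjusted p = 0.0801) and under quantile normalization (-1.22, adjusted p = 0.0591). These contrasts called 29.6% of 11566 probe sets in DEN-CA rats and 3.74% in CA rats.

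Tat differences were -1.94, -1.63, -1.58, -0.97, -0.83, -0.81 and 1.41 in DEN-CA rats, below 0 in 6 of 7, with a mean of -0.91 ± 0.29 (SE, adjusted p = 0.0238). In CA rats they were -1.47, -1.42, -1.39, -1.23, -1.08, -0.96, -0.89, -0.40 and 0.73, below 0 in 8 of 9, with a mean of -0.90 ± 0.26 (SE, adjusted p = 0.0552) that did not pass. Gls2 fell in DEN-CA rats by 0.59 ± 0.20 (SE, adjusted p = 0.0295), below 0 in 6 of 7, and differed by -0.26 ± 0.17 (SE, adjusted p = 0.408) in CA rats. Tat in DEN-CA rats was lost without rat 4103, 4105 or 4107 (adjusted p up to 0.0893), and Gls2 without rat 4103, 4104, 4106 or 4107 (up to 0.103). Under quantile normalization neither passed, with -0.76 for Tat (adjusted p = 0.0625) and -0.40 for Gls2 (adjusted p = 0.115), and without scaling Gls2 did not (-0.65, adjusted p = 0.0552). Sds was below 0 in 6 of 7 DEN-CA rats and 7 of 9 CA rats, with means of -1.16 ± 0.67 (SE, adjusted p = 0.205) and -1.31 ± 0.59 (SE, adjusted p = 0.195) that did not pass. Hpd was below 0 in 9 of 9 CA rats by a small amount, -0.32 ± 0.10 (SE, adjusted p = 0.0785), and Got1 (0.19 ± 0.32 in DEN-CA rats, -0.30 ± 0.28 in CA rats) and Tdo2 (-0.03 ± 0.12 in DEN-CA rats, -0.21 ± 0.11 in CA rats) did not pass in either arm.

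**Figure D4:**
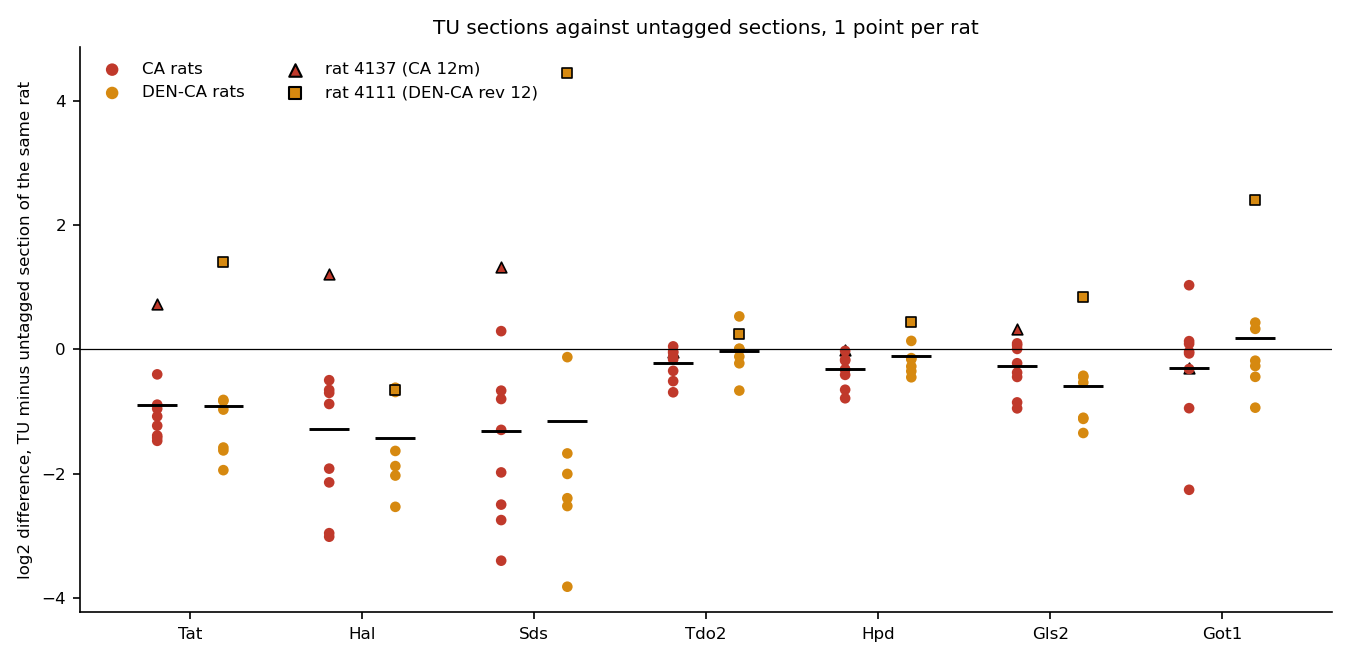
Log2 difference between TU and untagged sections of the same rat, 1 point per rat, for 9 CA and 7 DEN-CA rats, with the arm mean as a line. Rat 4137 (triangle) lies above 0 for Tat, Hal and Sds at 0.73, 1.21 and 1.32, and rat 4111 (square) lies at 4.45 for Sds and 2.40 for Got1, while most other points lie below 0 for Tat, Hal and Sds.

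A pair of rats went against the others. The untagged section of CA rat 4137 was the lowest of its 3 sections for these genes, with Tat 762, Hal 432 and Sds 81.0, against 1277, 1031 and 240.0 in its TU section and 1216, 1076 and 351 in its PERI section. The same-rat correlation of deviations over probe sets was -0.531 for this rat's TU section and up to 0.463 for others. DEN-CA rev rat 4111 had 2 TU sections with Sds 3463 and 4883, against 164 in its untagged section, with Got1 3979 and 4065, against 743, and with Tat 2002 and 2747, against 867. Its Hal was 278 and 354 in TU sections, against 507, lower as in the other rats. Pancreatic acinar markers summed to 1215 and 16086 in its TU sections, whereas untagged sections of DEN-CA rats with TU ran from 372 to 1402, and the part of these markers in its values was not tested.

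Values without rats 4137 and 4111 are given as a description with no test, since these rats were chosen after seeing that their differences went against the others. In DEN-CA rats they were -1.29 for Tat, -1.56 for Hal, -2.09 for Sds and -0.83 for Gls2. In CA rats they were -1.10 for Tat, -1.59 for Hal, -1.64 for Sds and -0.36 for Hpd. Only some members are given in each arm. Among those left out, the Got1 differences of these rats ran from -0.94 to 0.43 in DEN-CA rats and from -2.26 to 1.03 in CA rats, on both sides of 0. The TU effect in DEN-CA rats minus that in CA rats passed for no member and for 0% of probe sets, with -0.15 ± 0.49 for Hal (SE, 95% interval -1.11 to 0.81).

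Many other breakdown genes were lower in TU sections of DEN-CA rats: 31 of 55 fell and 4 rose, beside 29.6% of all probe sets called, and in CA rats 7 fell and 1 rose. Oat differed by -2.40 ± 0.40, Dao by -2.32 ± 0.35, Aass by -1.82 ± 0.35 and Cbs by -1.38 ± 0.28 in DEN-CA rats, and all 4 fell. Cbs also fell in CA rats (-1.04 ± 0.24), as did the carriers Slc16a10 (-0.90 ± 0.24) and Slc38a3 (-0.58 ± 0.13). Cell type markers moved beside them in DEN-CA rats, where 6 of 6 pericentral, 4 of 6 macrophage, 2 of 4 endothelial, 2 of 8 periportal and 0 of 7 general hepatocyte markers fell and 3 of 8 stellate cell and fibroblast markers rose and 1 fell, 2 of 4 acinar markers rose, and 0 of 3 cholangiocyte markers passed. Cholangiocyte markers summed to 844 to 1372 (median 1209) in TU sections, against 678 to 997 (median 931) in untagged ones, and acinar markers had a median sum of 1757 in TU sections, against 1038 in untagged ones. The summed pericentral signal ran from 4781 to 15584 in 8 TU sections, against 11572 to 27166 in the 7 untagged sections of the same rats, and the summed macrophage signal from 1941 to 6782 in TU sections, against 3538 to 8569 in untagged ones. In CA rats the pericentral sum ran from 7372 to 15256 in 15 TU sections, against 7634 to 25151 in 9 untagged sections. The part of these shifts in the members' differences was not tested.

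PERI sections did not differ from untagged ones in any member past the threshold, and 0% of 10174 probe sets were called, with 283 at an unadjusted p under 0.05. The largest mean difference among members was that of Sds, 0.25 ± 0.28 (SE, 95% interval -0.31 to 0.81), and Hal differed by 0.19 ± 0.21 (SE, 95% interval -0.22 to 0.60). With 5 rats, of which rat 4137 alone had Hal and Sds differences above 1, at 1.27 and 1.83, the intervals stay wide. They rest on a normal approximation, so intervals that allow for so few rats would be wider still.

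Within groups the signals of the members rose and fell together from rat to rat. Members of 1 array share its scaling factor, which the permutation test below cannot separate from shared expression. Pairs of other genes were not tested. After the group mean was removed, all 21 pairs of members had a correlation above 0 over 148 rats, and all 21 passed a permutation test within groups (100000 resamples, Benjamini-Hochberg over 21 pairs, smallest possible p 1e-05). The closest pair was Sds and Got1, with Pearson's r = 0.85 and Spearman's rho = 0.84 (permutation p = 1e-05 for each, 0.84 for r without the 2 rats farthest from the median Sds). It was 0.93 over 41 rats with the B suffix, 0.83 over 97 rats without it and 0.86 after quantile normalization. A rat high in Sds for its group was thus usually high in Got1. Gls2 went with Sds (r = 0.67, rho = 0.65) and with Got1 (r = 0.67, rho = 0.67), and Hal with Gls2 (r = 0.64, rho = 0.62). The weakest pair was Tat and Tdo2 (r = 0.27, rho = 0.23, permutation p = 0.0106 for r and 0.0143 for rho).

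Tdo2 and Hpd, the brightest members, showed r = 0.83, but this turned to -0.15 under quantile normalization, a sign that depends on the scaling. Under quantile normalization Hpd with Gls2 also came to 0.06, beside 0.60 with median scaling. The other pairs with Hpd were lower as well. They came to 0.21 beside 0.53 for Hal, 0.16 beside 0.32 for Tat, 0.13 beside 0.31 for Got1 and 0.21 beside 0.30 for Sds. Pairs without Hpd moved too: Hal with Gls2 came to 0.42 beside 0.64, Hal with Got1 to 0.30 beside 0.46 and Tdo2 with Gls2 to 0.34 beside 0.54. Sds with Tdo2 went the other way, to 0.41 beside 0.30, and Sds with Got1 stayed at 0.86 beside 0.85.

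**Figure D5:**
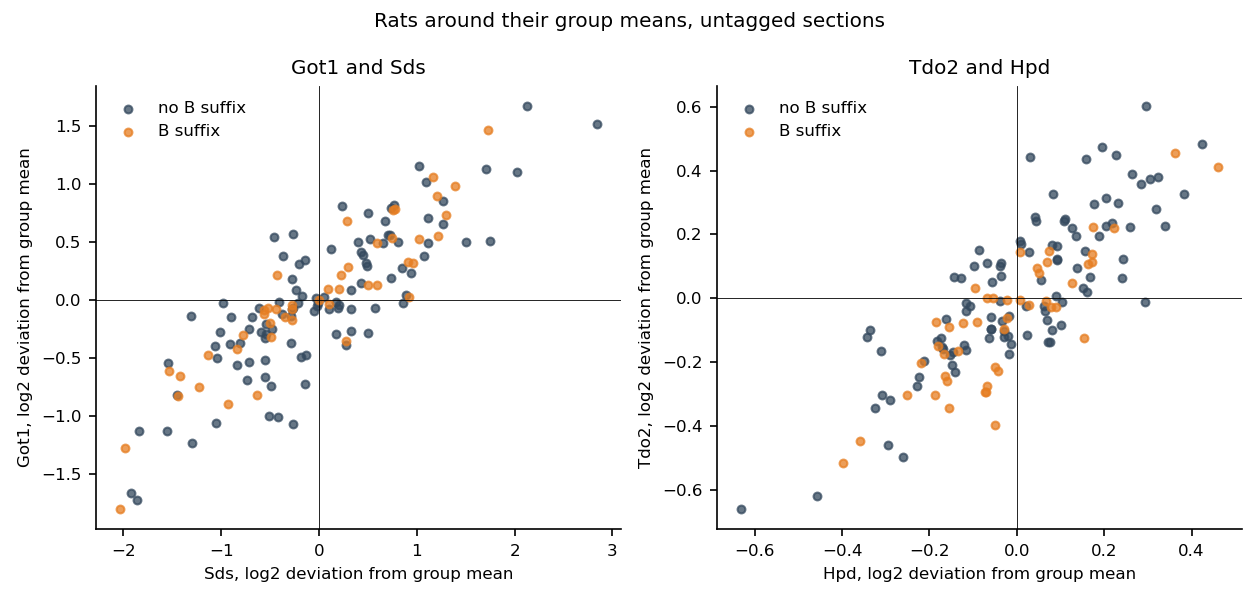
Log2 deviation of each rat from its group mean for Got1 against Sds (left) and Tdo2 against Hpd (right) in 148 untagged sections, with B suffix sections in orange. Got1 and Sds rise together with r = 0.85 over a range of several log2 units, and Tdo2 and Hpd with r = 0.83 over a narrower range.

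Genes whose pattern was most like each member were sought among all genes that passed the filter, by Pearson's r over the 30 group means and over deviations of the 148 rats, as descriptions of these arrays. For Hal the closest over group means were Slc25a15 (0.92), Rcl1 (0.91) and Rarres2 (0.90), and over deviations Asl (0.76), Adh5 (0.71) and Agxt (0.68). For Sds they were Got1 (0.79), Gls2 (0.77) and Tmem176b (0.75) over group means, and Got1 (0.85), Slc25a15 (0.73) and Mtmr7 (0.70) over deviations. For Got1 they were Sds (0.79), Slc25a15 (0.75) and Aass (0.73), and over deviations Sds (0.85), Slc25a15 (0.82) and Slc38a4 (0.69). For Gls2 they were Hal (0.89), Hpn (0.88) and Gda (0.87), and over deviations Slc38a4 (0.79), Fah (0.75) and Sdhd (0.74). Slc25a15, the mitochondrial ornithine carrier, thus appeared for Hal, Sds and Got1.

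For Tat the closest were Csnk1d (0.78), Bckdk (0.75) and Ddit4 (0.75) over group means and Slc25a25 (0.67), Slc38a2 (0.62) and Agxt (0.61) over deviations. Tdo2 was closest to Serpina3c (0.95), COX2 (0.94) and Rbp4 (0.94) over group means and Apoc1 (0.89), Gc (0.88) and Mgst1 (0.87) over deviations. Hpd was closest to Pigr (0.94), Apoc1 (0.93) and Apoa2 (0.93) over group means and Ass1 (0.88), Cyp2c23 (0.86) and Atp5f1b (0.86) over deviations. All points share the arrays and their scaling.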

How the data were processed

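Liver sections of 176 arrays were analysed. The deposited values were linear intensities from MAS5, per the submitters' processing notes, whose version is not given in the sources used here, and no further step of the authors is recorded there. Array medians ran from 25.35 to 187.25, so each array was scaled to a median of 99.35 and values were taken as log2(intensity + 25). Probe sets above the 40th percentile on 3 or more arrays were kept, 12393 for untagged, 11566 for TU and 10174 for PERI sections. Probe sets were named through the array annotation, giving 12783 with 1 gene, 312 with several and 2827 with none. Differences were tested with limma 3.58.1 in R 4.3.3, with 1 mean per group over all 148 untagged sections. For TU and PERI sections the fit used per-rat differences from the untagged section, with TU sections of 1 rat averaged first. Both sections come from the same animal by the rat number in the titles. The same-rat correlation of deviations ran from -0.531 to 0.463. P-values were adjusted by Benjamini-Hochberg over all probe sets kept, with a threshold of 0.05. Figures and correlations used Python 3.11.15.

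Replicates correlated between arrays of a group at a median r of 0.967 and a lowest of 0.917, and 0 pairs of arrays were identical. The number of arrays limits the precision. Arm and time came from the source names, except for the 7 DEN-CA rev 12 arrays, where they came from the titles, as did all rat numbers. The 7 members, the gene lists and the tests were chosen with earlier results of these data known. Beside the members, the text names other breakdown genes that passed in 1 direction at 4 or more of 6 CA times, up to 2 genes a list with the smallest p-values, and the 3 genes closest in pattern to each member. The limma fits were tested on simulated data. Alternatives covered scaling, quantile normalization, offset, filter, array weights, the B suffix, the groups in the fit, the pairing by rat and leaving out each rat.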

Additional observations from a re-analysis of the deposited data

Results flagged for a closer look

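Single rats that lay far from the others of their group were sought in 224 sets of 4 to 10 rats, with Dixon's test at its 95% critical value. In 18 of them (8.04%) a rat stood apart, where chance gives about 1 in 20. The 18 values came from 13 rats, 12 above and 6 below the others.

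In untagged sections, Hpd was 11680.4 in rat 4151 of CA rev 18m, with the next rat at 10796, 10418 in rat 4105 of DEN-CA 9m (next 7792) and 10289 in rat 4039 of control 18m (next 9261). Tat was 1290.5 in rat 4087 of DEN-CA 5j (next 885), 2743 in rat 4061 of DEN 1m (next 1302) and, on the low side, 823 in rat 4002 of control -8 (next 1870.3). Tdo2 was 8165 in rat 4069 of DEN 9m (next 7241) and 10926 in rat 4019 of control 3m (next 7490.4), and Got1 was 4408 in rat 4024 of control 9m (next 1892). Rat 4111 of DEN-CA rev 12 was low for Tdo2 (3632, next 5893) and for Hpd (5346, next 8946). Rat 4056 of DEN 5j was low for Sds (508, next 2297) and Got1 (652, next 2490.6).

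Among differences from the untagged section of the same rat, in log2, rat 4111 was above the other DEN-CA rats for Tat (1.41, next -0.81), Gls2 (0.84, next -0.43) and Got1 (2.40, next 0.43). Tat in TU of CA rat 4137 was 0.73, with the next at -0.40, and Tdo2 in PERI of rat 4109 was -0.52, with the next at 0.02. Their cause was not tested.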

How the results depend on the processing

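Leaving aside fits without 1 rat, 3038 values kept their side of the threshold, 81 lost the call, 68 gained it and 7 changed sign. Without 1 rat the numbers were 4602, 61, 34 and 0. Sign changes were counted only where the main or the altered fit passed, so values that passed in neither could change sign uncounted. The 7 sign changes came without scaling, where the median of all probe sets shifts, by -0.71 for CA at 3m: Tdo2 (-0.51) and Hpd (-0.71) in CA at 3m, Hpd in DEN-CA at 9m (0.021) and in DEN-CA rev 12 against DEN-CA 12m (0.52), and Tat (1.31), Tdo2 (0.69) and Hpd (0.90) in the difference of CA effects at 3m. Member calls moved as follows. CA against control, 9 calls, had 1 with B suffix sections alone (4 of 6 comparisons could be fitted), 3 without them and 4 at 2-fold. DEN-CA against DEN, 4 calls, had 0 without scaling, without B or at 2-fold and 10 with only the compared groups in the fit. The difference of CA effects had 6 without scaling, against 0. Control 18m against 5j, 1 call, had 0 without scaling, after quantile normalization or at 2-fold and 2 with B as a covariate. CA rev, 2 calls, had 0 without scaling, 4 with only the compared groups and 1 at 2-fold. DEN-CA rev, 0 calls, had 1 without scaling. Control rev, 0 calls, had 1 with array weights and 2 with only the compared groups. CA 18, 1 call, had 3 after quantile normalization, 2 with array weights, 3 with only the compared groups and 0 at 2-fold. TU in CA rats, 1 call, had 0 without scaling, after quantile normalization, without a filter or without rev rats, 3 with a filter at the 70th percentile or a random replicate block, and 4 with array weights. No count is given without rats 4137 and 4111, since they were picked for their differences. TU in DEN-CA rats, 3 calls, had 1 after quantile normalization, without pairing by rat, with a random replicate block in place of the pairing or at 2-fold. The average over times had 0 calls at 2-fold in both arms, against 5 for CA and 4 for DEN-CA, and 2 without scaling for DEN-CA. Of 21 correlations, 11 passed with B sections alone. Without 1 rat, calls ran from 6 to 10 for CA, 1 to 4 for DEN-CA, 0 to 2 for control 18m against 5j, 1 to 3 for CA rev, 0 to 2 for CA 18, 0 to 4 for TU in CA rats, 1 to 4 for TU in DEN-CA rats, 4 to 6 for the CA average, 4 to 5 for the DEN-CA average and 0 to 0 elsewhere. The random replicate block had a within-rat correlation of 0.132 for TU and 0.0996 for PERI. Other probe sets of a gene could not be tried, since each member has 1. The causes were not tested.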
